A study of Mus musculus with 6 samples.

Results

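The genes described here are 38 markers of cardiac macrophages and other myeloid cells, measured by poly-A RNA sequencing in 6 mouse heart samples. They were picked by gene symbol from the deposited table, and all 38 symbols were found among its 16229 listed genes. 37 of them were among the 12981 genes with enough expression to test, and Ms4a6c was below that limit. The rule uses the symbol alone and no measured value.

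The samples came from male wild-type C57BL/6 mice aged 8 to 10 weeks. 2 libraries came from mice given rivaroxaban, an inhibitor of coagulation factor Xa, at 3 mg/kg for 7 days (replicates 14 and 15). 2 came from mice given dabigatran, an inhibitor of factor IIa (thrombin), at 10 mg/kg for 7 days (replicates 10 and 12), and 2 from untreated mice (replicates 8 and 9). The series concerns reperfusion injury of the heart after ischemia, and the extraction protocol, which is the same for every sample, describes infarcted tissue with its surroundings; no label says whether the untreated mice had surgery. The drugs were therefore compared at a single dose each, and the doses differ. No label ties a sample to its own mouse; the p-values hence cover the spread between samples, which may be technical.

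Macrophages are phagocytes that live in most tissues. In the heart they lie between the muscle cells, clear dead cells and debris, and are kept alive by growth factors that act on the receptor CSF1R. Resident cardiac macrophages are known for scavenger and uptake receptors such as CD163, MRC1 (CD206), FOLR2 and TIMD4, whereas cells newly derived from blood monocytes are known for the chemokine receptor CCR2. In whole tissue, fewer cells of a type and less RNA per cell cannot be told apart, and this applies to every value that follows.

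Levels are in log2 CPM, where CPM stands for the reads of a gene after scaling to a common library size by the authors. Values are listed in the order of the replicates above. The libraries held 27176892 to 43798222 reads in listed genes, and the markers took between 0.107% and 0.123% of them. The summed level of the markers was 1213 and 1065 CPM in the rivaroxaban libraries, 1106 and 1183 CPM in the dabigatran libraries, and 1156 and 1066 CPM in the untreated libraries. The untreated values thus lay inside the range of the treated ones. On the first principal component of all tested genes, the treated libraries scored from -11.21 to -4.15 and the untreated ones 13.41 and 17.38.

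Macrophage markers were well detected in every heart. Per kilobase of exon, Lyz2, which encodes lysozyme, had the highest level of the list at 7.34 log2 CPM per kilobase, above 97.8% of tested genes. The complement genes C1qa and C1qb (6.02 and 5.97 on the same scale) and the lysosomal protease gene Lgmn (5.67) came next. Csf1r stood at 3.78 log2 CPM per kilobase, above 75.6% of tested genes, and Cd163 at 2.21, above 49.8%. The lowest levels were those of Ms4a6c at -1.62, Ccr2 at -1.58, Gpnmb at -1.42 and Ptprc at -1.15 log2 CPM per kilobase. The resident markers Folr2 (3.52), Mrc1 (2.61), Cd163 and Timd4 (0.96) were thus higher per length than Ccr2. Cd14 (2.14) and Cx3cr1 (0.97), also genes of monocytes, were above Timd4 and above the resident marker Siglec1 (-0.70). Levels of different genes do not give the shares of the cell types. Markers of neutrophils, which are abundant in freshly infarcted heart, summed to 20.4 and 17.4 CPM with rivaroxaban, 18.4 and 20.3 CPM with dabigatran, and 23.9 and 19.5 CPM in untreated hearts. 10 of the 16 neutrophil markers were listed and 4 reached the limit for testing; S100a8, S100a9 and Il1b were among those below it. Of the 4 tested, Lcn2, which encodes the iron-carrier-binding protein lipocalin, was called lower with rivaroxaban (log2 -0.95, limma adjusted p = 0.0281). Of all tested genes, 0.986% were called lower with rivaroxaban. None of the 4 was called with dabigatran. At an unadjusted p under 0.05 in limma, 2 of the 4 were lower with rivaroxaban and 1 was lower with dabigatran. Such a p was found for 17.2% and 14.7% of all tested genes, in the same order. Spp1, Arg1 and Chil3, genes of activated macrophages, were below the limit as well. Nos2, Retnla, Lgals3, Fabp5, Msr1 and Tgfbi, from the same wider macrophage list, reached the limit. Limma called none of them with either drug.

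**Figure D1:**
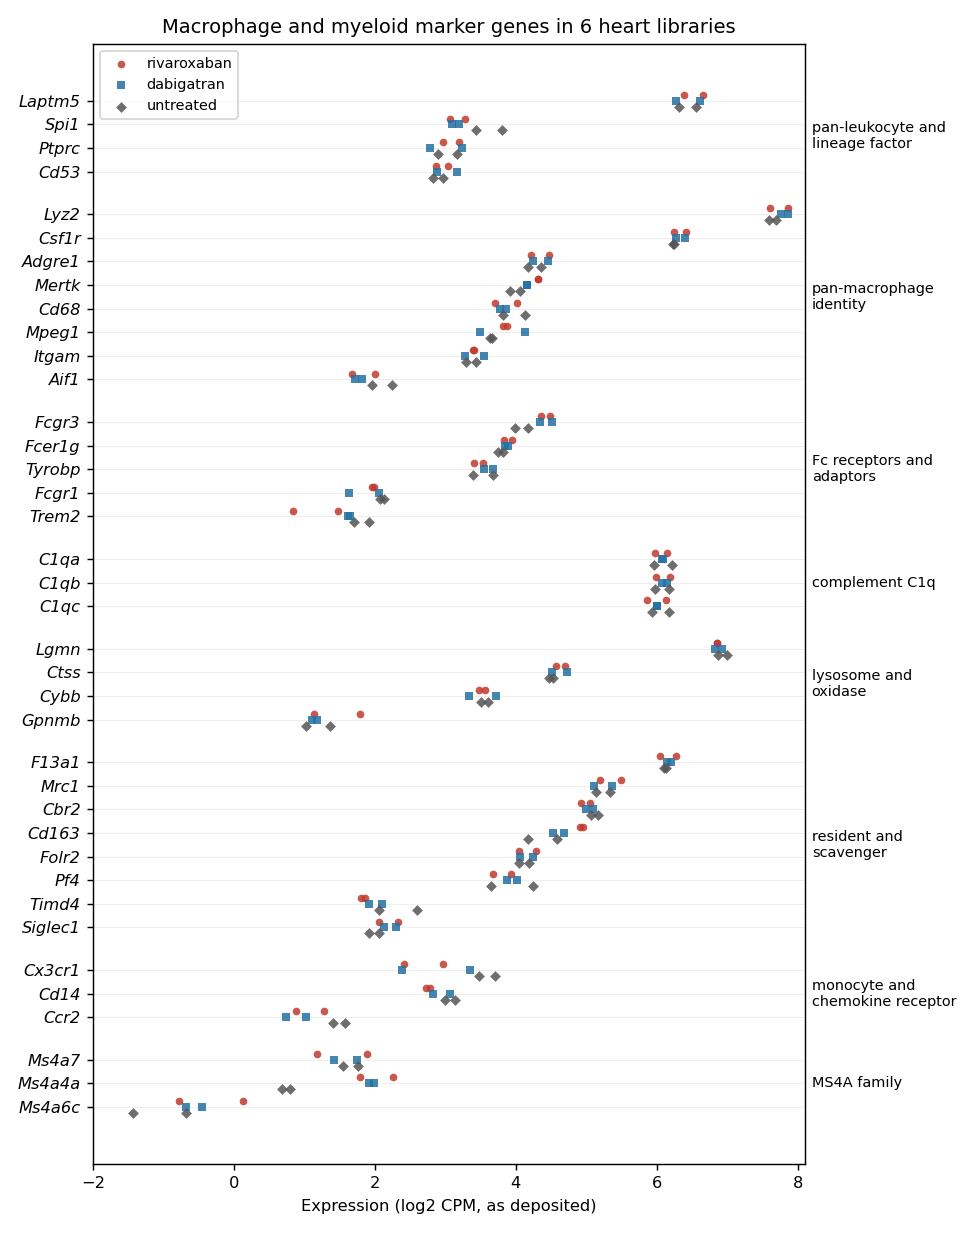
Expression of the 38 marker genes (log2 CPM as deposited, x axis) in each of the 6 heart libraries, grouped by the role of the gene (y axis). Each symbol is 1 library. For most genes the 6 symbols lie close together, while Ms4a4a has its 2 untreated values (0.80 and 0.68) well to the left of its 4 treated values (1.79 to 2.26).

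Promoters are shown for the binding motifs of 2 transcription factors. PU.1, the product of the marker gene Spi1, drives myeloid genes and binds a core of GAGGAA, and the glucocorticoid receptor has targets that were called higher with each drug (values further on). RefSeq promoters of GRCm38.p6, from 250 bases before to 50 bases after the start, were given for 31 of the 38 genes, as 37 promoters. Cd14, Adgre1, C1qa, Tyrobp, Siglec1, Spi1 and Csf1r had no entry. GAGGAA or its reverse complement TTCCTC occurred in 20 of the 37 promoters (54.1%), against 28.3% of 32851 promoters of all genes. TGTTCT or AGAACA, the unit that the glucocorticoid receptor binds in pairs, occurred in 12 of the 37 (32.4%), against 19.0%. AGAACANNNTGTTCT, a pair of such units in palindrome, occurred in 0 of the 37 and in 0.00913% of all promoters. The 4 promoters printed here are those of both genes that passed the test, Ms4a4a and Cd163, and those of Fcgr3 and Itgam. Fcgr3 had the next largest positive difference with each drug. Itgam held 3 PU.1 cores, as did Mrc1, which is not printed. Capitals mark the PU.1 core and the glucocorticoid receptor unit in either orientation. The windows are chr19:11375238-11375537 on the plus strand for Ms4a4a, chr6:124304401-124304700 on the plus strand for Cd163, chr1:171059354-171059653 on the minus strand for Fcgr3 and chr7:128062390-128062689 on the plus strand for Itgam.
Ms4a4a: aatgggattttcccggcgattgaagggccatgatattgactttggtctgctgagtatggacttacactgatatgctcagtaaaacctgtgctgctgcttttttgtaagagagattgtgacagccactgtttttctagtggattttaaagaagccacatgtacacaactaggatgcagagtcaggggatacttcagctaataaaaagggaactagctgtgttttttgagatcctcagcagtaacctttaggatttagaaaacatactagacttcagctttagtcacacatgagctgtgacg
Cd163: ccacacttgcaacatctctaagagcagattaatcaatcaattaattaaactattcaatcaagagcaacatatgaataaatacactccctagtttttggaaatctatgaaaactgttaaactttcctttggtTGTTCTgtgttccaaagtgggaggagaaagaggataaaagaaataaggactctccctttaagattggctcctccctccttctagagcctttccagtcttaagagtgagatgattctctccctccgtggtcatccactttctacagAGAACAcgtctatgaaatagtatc
Fcgr3: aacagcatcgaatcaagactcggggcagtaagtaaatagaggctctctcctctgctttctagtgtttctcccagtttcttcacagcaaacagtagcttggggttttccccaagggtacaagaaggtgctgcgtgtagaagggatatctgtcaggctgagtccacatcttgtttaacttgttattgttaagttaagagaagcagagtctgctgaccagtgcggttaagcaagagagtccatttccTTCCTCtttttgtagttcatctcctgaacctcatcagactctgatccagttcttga
Itgam: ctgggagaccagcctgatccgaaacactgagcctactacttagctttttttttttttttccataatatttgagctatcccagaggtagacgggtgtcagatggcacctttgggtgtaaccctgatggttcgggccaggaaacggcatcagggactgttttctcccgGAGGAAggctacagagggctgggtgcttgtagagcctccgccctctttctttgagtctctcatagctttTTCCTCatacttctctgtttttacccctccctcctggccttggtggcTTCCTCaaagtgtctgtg
The Ms4a4a window held neither motif. The Cd163 window held 2 glucocorticoid receptor units, which begin 119 bases before and 26 bases after the start, and no PU.1 core. The printed Fcgr3 window held 1 PU.1 core, 6 bases before the start. From the start of the other Fcgr3 promoter, that core lay 15 bases before. A match of letters is a description of the window and not a measured binding site.

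The comparison of rivaroxaban with untreated hearts asked which macrophage markers differed after dosing with the factor Xa inhibitor. Whether the untreated mice had surgery is not labelled. In this and the dabigatran comparison, an effect of the drug thus cannot be told apart from that of dosing or surgery. 2 of the 37 tested markers rose, Ms4a4a and Cd163, and 0 fell (limma, Benjamini-Hochberg adjusted p under 0.05 over all tested genes). That is 5.41% of the markers, where 2.46% of all tested genes were called, 1.47% as higher and 0.986% as lower. At an unadjusted p under 0.05, 4 markers were higher and 5 were lower in limma, and 4 were higher and 4 lower in limma-voom on recovered reads, which called 2 as higher and 0 as lower after adjustment. These were 9 of the 37 markers in limma, where 17.2% of all tested genes had such a p. The median log2 difference of the markers was 0.04, against 0.01 for all tested genes, with 20 markers above 0 and 17 below. For 23 of the 37 markers the difference was within 0.2 log2 units, where 77.4% of all genes were.

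The comparison of dabigatran with untreated hearts used the same untreated libraries. 1 of the 37 tested markers rose, Ms4a4a, and 0 fell, which is 2.7%, where 1.88% of all tested genes were called, 1.38% as higher and 0.501% as lower. At an unadjusted p under 0.05, 3 markers were higher and 3 lower in limma, and 2 were higher and 3 lower in limma-voom, which also called 1 as higher and 0 as lower. These were 6 of the 37 markers in limma, where 14.7% of all tested genes had such a p. The median log2 difference of the markers was 0.01, against 0.00 for all tested genes, and 27 of the 37 lay within 0.2 log2 units, where 78.5% of all genes did. With every library centred on the median of its genes, 17 markers lay above 0 and 20 below, in place of 20 and 17.

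**Figure D2:**
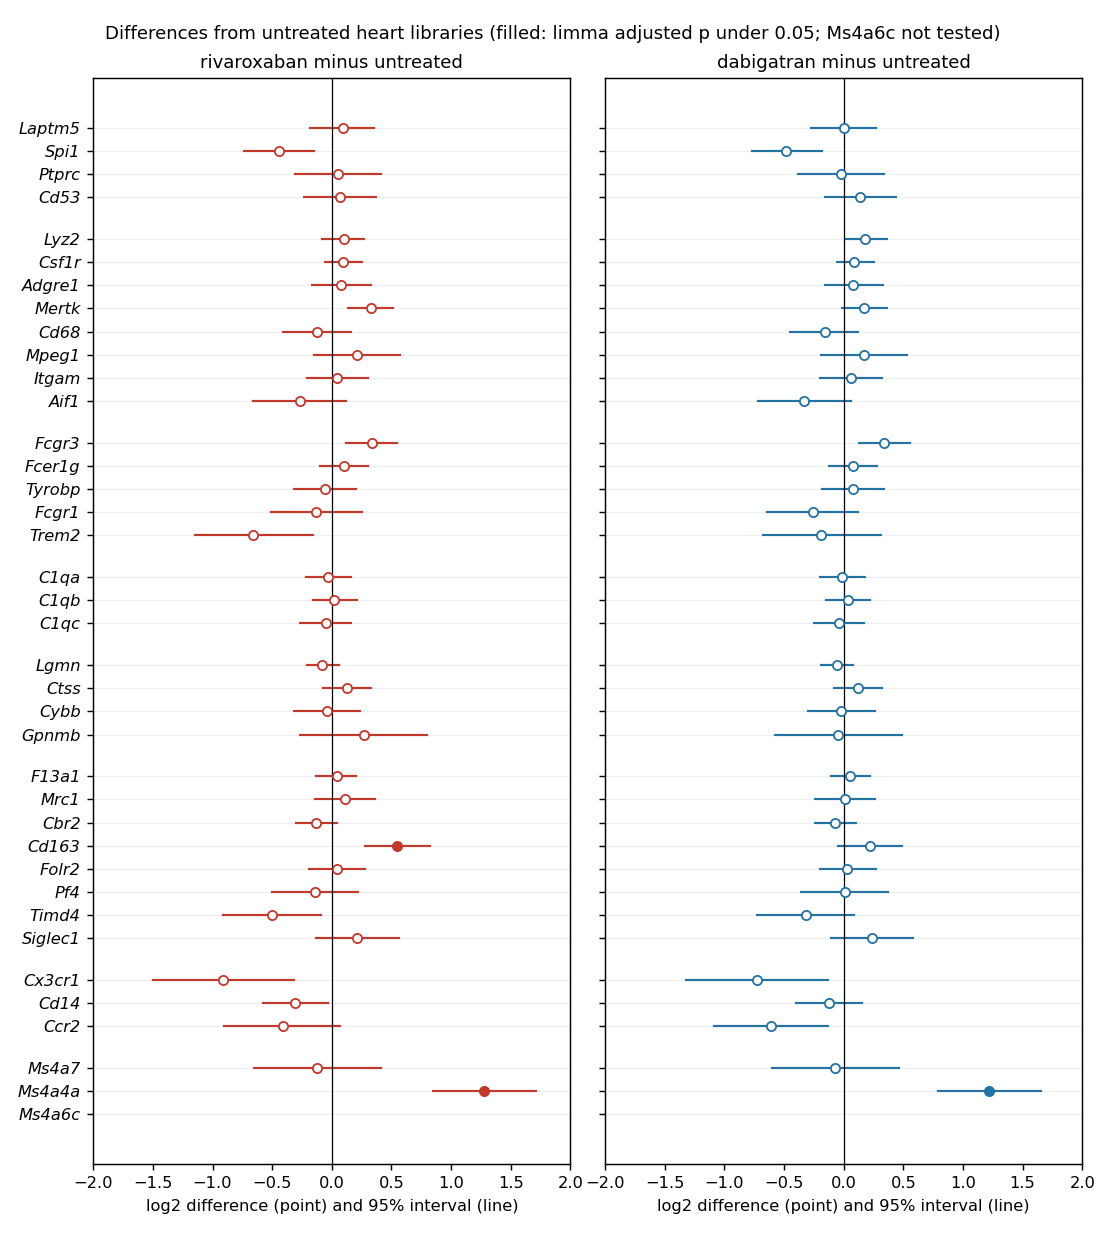
Log2 differences of the 37 tested marker genes from untreated hearts (x axis), for rivaroxaban (left) and dabigatran (right), with 95% intervals from limma as lines; genes are ordered by role as in the plot of levels. Filled points passed the test: Ms4a4a (1.28) and Cd163 (0.55) with rivaroxaban and Ms4a4a (1.22) with dabigatran.

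Ms4a4a encodes a membrane-spanning protein of macrophages and belongs to the MS4A gene cluster. On GRCm38 it lies on the plus strand of chromosome 19 from 11375523 to 11392790 and is annotated as protein-coding. It had 1.79 and 2.26 log2 CPM in the rivaroxaban libraries, 1.99 and 1.92 in the dabigatran libraries, and 0.80 and 0.68 in the untreated libraries. Every treated library was above both untreated ones, and the treated groups overlapped. These values rest on 124 and 138 reads with rivaroxaban, 105 and 163 reads with dabigatran, and 48 and 50 reads in untreated hearts. Ms4a4a was 2.43-fold higher with rivaroxaban (log2 1.28, SE 0.19, limma adjusted p = 0.00677) and 2.32-fold higher with dabigatran (log2 1.22, SE 0.19, limma adjusted p = 0.0115). Leaving out rivaroxaban replicate 15 ended the rivaroxaban call (log2 1.05, limma adjusted p = 0.101). Leaving out dabigatran replicate 10, untreated replicate 8 or untreated replicate 9 ended the dabigatran call, with limma adjusted p of 0.0803, 0.0548 and 0.0535 and log2 differences between 1.16 and 1.28. Leaving out the mean-variance trend ended both calls, as it did for every gene of the table. None of the 50-base stretches of Ms4a4a occurred in another gene of the annotation.

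The other MS4A genes of the list did not pass. Ms4a7, another macrophage gene of the cluster, had 1.89 and 1.17 log2 CPM in the rivaroxaban libraries, 1.42 and 1.74 in the dabigatran libraries, and 1.54 and 1.76 in the untreated libraries, and all groups overlapped. Ms4a6c had between 10 and 30 reads per library and was not tested; 53.1% of its exon length overlaps the gene BE692007 on the other strand. Of 17 further genes of the MS4A family and their TMEM176 relatives, 10 were listed and 6 were tested. Of the 6, 1 rose with each drug (16.7%), Ms4a6b, which is not on the marker list. Among all tested genes, 1.47% were called higher with rivaroxaban and 1.38% with dabigatran. Ms4a6b had 2.91 and 3.02 log2 CPM with rivaroxaban, 3.07 and 2.85 with dabigatran, and 2.39 and 2.18 in untreated hearts. The treated libraries were again all above the untreated ones. The log2 difference was 0.68 (SE 0.13, limma adjusted p = 0.026) with rivaroxaban and 0.67 (SE 0.13, limma adjusted p = 0.0364) with dabigatran, on chromosome 19 from 11516512 to 11531256. The rivaroxaban call of Ms4a6b held in 10 of 15 alternatives and the dabigatran call in 7 of 15. The rivaroxaban call was lost without rivaroxaban replicate 14 or 15 or untreated replicate 8 or 9 (log2 0.58 to 0.79, limma adjusted p up to 0.24). The dabigatran call was lost on leaving out any 1 library other than dabigatran replicate 12 (log2 0.56 to 0.78, limma adjusted p up to 0.216). Ms4a6d had 2.18 and 1.94 log2 CPM with rivaroxaban, 1.82 and 2.05 with dabigatran, and 1.72 and 1.41 in untreated hearts, and did not pass (log2 0.50 and 0.37, limma adjusted p = 0.188 and 0.37 for rivaroxaban and dabigatran).

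Among the 8 markers of resident and scavenging cells, 1 rose with rivaroxaban and 0 passed with dabigatran. Cd163, the receptor for haptoglobin bound to haemoglobin, lies on the plus strand of chromosome 6 from 124304656 to 124330527. It had 4.95 and 4.91 log2 CPM in the rivaroxaban libraries, 4.69 and 4.52 in the dabigatran libraries, and 4.17 and 4.59 in the untreated libraries. Both rivaroxaban values were above all others, whereas the dabigatran values overlapped the untreated ones. Cd163 was 1.46-fold higher with rivaroxaban than in untreated hearts (log2 0.55, SE 0.12, limma adjusted p = 0.0432) and differed from untreated by log2 0.22 with dabigatran (SE 0.12, limma adjusted p = 0.434). Without rivaroxaban replicate 14, rivaroxaban replicate 15 or untreated replicate 8 the rivaroxaban call was lost, and over all single omissions the log2 difference lay between 0.34 and 0.76 and the limma adjusted p between 0.00763 and 0.24.

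Mrc1, the mannose receptor, had 5.49 and 5.19 log2 CPM with rivaroxaban, 5.11 and 5.37 with dabigatran, and 5.33 and 5.14 in untreated hearts. Folr2, the folate receptor beta, had 4.28 and 4.05 log2 CPM with rivaroxaban, 4.06 and 4.25 with dabigatran, and 4.05 and 4.19 in untreated hearts. Timd4, a receptor for phosphatidylserine on dying cells, had 1.86 and 1.80 log2 CPM with rivaroxaban, 1.92 and 2.10 with dabigatran, and 2.60 and 2.06 in untreated hearts. Of the exon length of Folr2, 63.1% overlaps the gene Gm10602 on the other strand. The groups overlapped for Mrc1 and Folr2, while for Timd4 both rivaroxaban libraries were below both untreated ones and the dabigatran group overlapped the untreated one. The log2 difference of Timd4 was -0.50 with rivaroxaban (SE 0.19, limma adjusted p = 0.204) and -0.32 with dabigatran (SE 0.19, limma adjusted p = 0.474), neither of which passed. The other 4 genes of this group, Siglec1 (a sialic acid receptor), Cbr2 (a carbonyl reductase that shares 12.1% of its 50-base stretches with other genes), F13a1 (the A subunit of coagulation factor XIII) and Pf4 (platelet factor 4), differed from untreated hearts by log2 -0.14 to 0.21 with rivaroxaban and by -0.07 to 0.24 with dabigatran, and none of the 4 passed. F13a1, whose protein is activated by thrombin in the clot, had 6.27 and 6.04 log2 CPM with rivaroxaban, 6.14 and 6.20 with dabigatran, and 6.10 and 6.13 in untreated hearts.

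The 13 glucocorticoid target genes listed for this comparison had a summed level of 1111 and 1276 CPM with rivaroxaban, 1259 and 1133 CPM with dabigatran, and 696 and 738 CPM in untreated hearts. By limma, 8 of the 13 rose with rivaroxaban (5 without rivaroxaban replicate 15) and 11 of the 13 with dabigatran (7 without dabigatran replicate 10 and 6 without untreated replicate 8), and 0 with either drug without the mean-variance trend. Limma called 1.47% of all tested genes as higher with rivaroxaban and 1.38% with dabigatran. The target list was chosen with earlier results of these data known, so its counts are a description only. The sum of the targets was high in all 4 treated libraries, as was Ms4a4a. Limma-voom called 10 of the targets with rivaroxaban and 9 with dabigatran, and limma called 0 between the drugs. Cd163 passed with rivaroxaban and not with dabigatran, but did not pass between the drugs (log2 0.32, limma adjusted p = 0.505). In human macrophages, CD163 and MS4A4A are known to be induced by glucocorticoids. The part of this in the values of both genes was not tested.

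Of the 8 genes of general macrophage identity, none passed in either comparison with untreated hearts; limma-voom called none of them either. Csf1r, the receptor for the macrophage growth factor CSF1, had 6.42 and 6.25 log2 CPM with rivaroxaban, 6.28 and 6.40 with dabigatran, and 6.23 and 6.25 in untreated hearts. Its log2 difference was 0.09 with each drug, with a 95% interval from -0.06 to 0.25 in both cases. Part of Csf1r, 15.1% of its exon length, overlaps Hmgxb3 on the other strand, and the setting for strand in the authors' counting is not given in the sources used here. Lyz2 had 7.87 and 7.61 log2 CPM with rivaroxaban, 7.77 and 7.87 with dabigatran, and 7.69 and 7.59 in untreated hearts. Its log2 difference was 0.10 with rivaroxaban (95% interval -0.08 to 0.27) and 0.18 with dabigatran (95% interval 0.01 to 0.36, limma adjusted p = 0.316). Lyz2 shares 15.4% of its 50-base stretches with other genes, Lyz1 above all, so its count is uncertain. Cd68, a lysosomal membrane protein, had 4.01 and 3.70 log2 CPM with rivaroxaban, 3.77 and 3.86 with dabigatran, and 4.13 and 3.82 in untreated hearts. Adgre1, which encodes the mouse macrophage antigen F4/80, had 4.47 and 4.22 log2 CPM with rivaroxaban, 4.24 and 4.46 with dabigatran, and 4.36 and 4.17 in untreated hearts. For Cd68 and Adgre1 the groups overlapped, and the intervals of the log2 difference from untreated hearts ran from -0.45 to 0.16 for Cd68 and from -0.17 to 0.33 for Adgre1 over both drugs. Itgam, the integrin chain CD11b, had 3.41 and 3.39 log2 CPM with rivaroxaban, 3.28 and 3.55 with dabigatran, and 3.43 and 3.29 in untreated hearts. It shares 66.3% of its 50-base stretches with Gm49368, an overlapping gene model, and is uncertain for that reason.

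Mertk, a receptor kinase for the uptake of dying cells, had 4.32 and 4.31 log2 CPM with rivaroxaban, 4.16 and 4.16 with dabigatran, and 3.92 and 4.06 in untreated hearts. The 3 groups did not overlap, in the order rivaroxaban, dabigatran, untreated. The log2 difference from untreated hearts was 0.33 with rivaroxaban (SE 0.08, limma adjusted p = 0.0759) and 0.17 with dabigatran (SE 0.08, limma adjusted p = 0.37), and neither passed. Aif1, which encodes the calcium-binding protein IBA1, and Mpeg1, which encodes perforin-2, differed from untreated hearts by log2 -0.27 and 0.21 with rivaroxaban and by -0.33 and 0.17 with dabigatran, also without passing.

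The 4 genes shared by leukocytes or by the myeloid lineage gave no call. Ptprc, the leukocyte phosphatase CD45, had 3.19 and 2.96 log2 CPM with rivaroxaban, 2.78 and 3.23 with dabigatran, and 2.89 and 3.17 in untreated hearts, and the groups overlapped. Laptm5, a lysosomal membrane protein of blood cells, and Cd53, a leukocyte tetraspanin, differed by log2 0.09 and 0.07 with rivaroxaban and by 0.00 and 0.14 with dabigatran. Spi1 had 3.28 and 3.07 log2 CPM with rivaroxaban, 3.19 and 3.10 with dabigatran, and 3.80 and 3.44 in untreated hearts. All 4 treated values of Spi1 were below both untreated ones, so it stood apart from the other genes of its group. The log2 difference was -0.44 with rivaroxaban (SE 0.13, 95% interval -0.74 to -0.15, limma adjusted p = 0.119) and -0.48 with dabigatran (SE 0.13, 95% interval -0.77 to -0.18, limma adjusted p = 0.117), and neither passed in any of 15 alternatives.

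**Figure D3:**
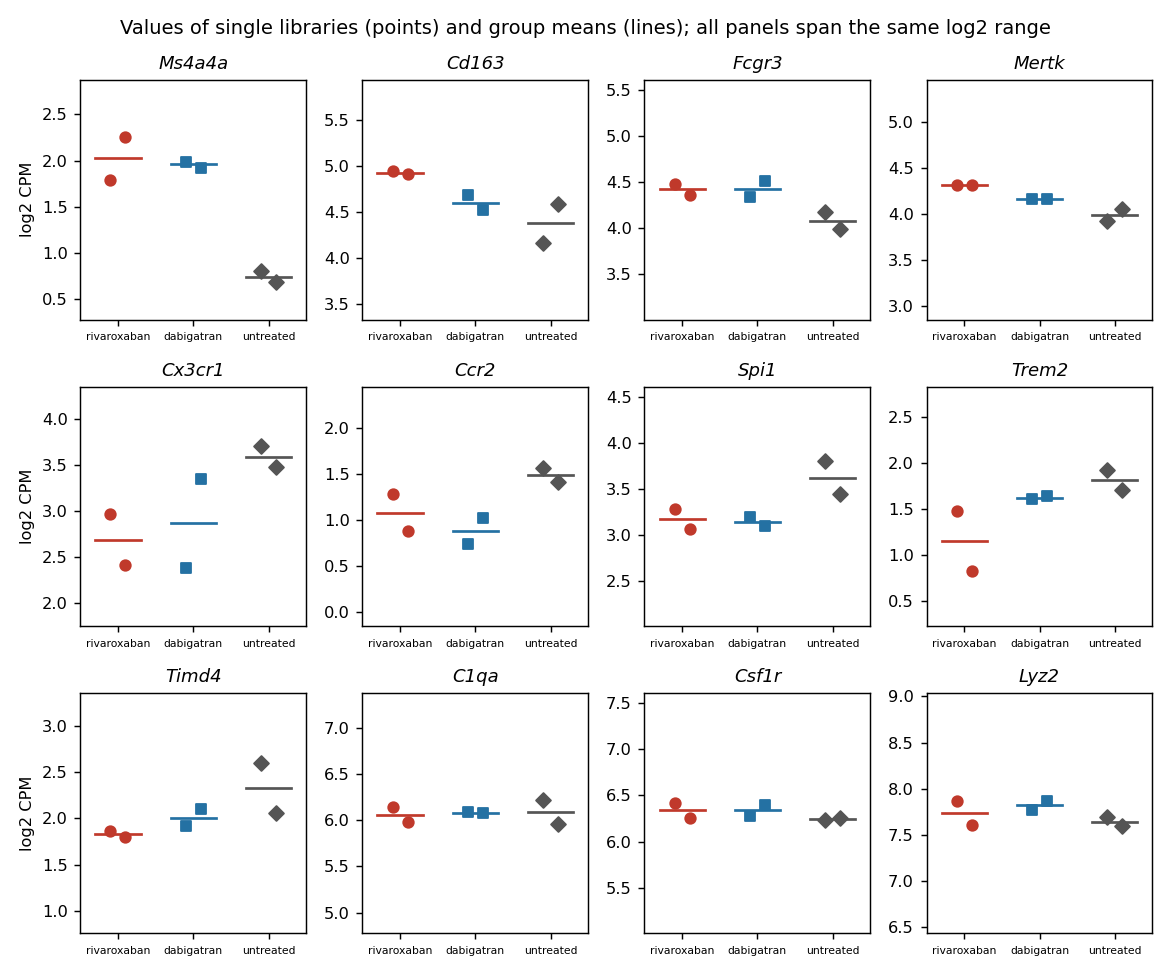
Expression of 12 marker genes (log2 CPM, y axis) by group (x axis); points are libraries, lines are group means, and all panels span the same range of log2 units so that heights can be compared. Ms4a4a, Cd163, Fcgr3 and Mertk have higher means in treated than in untreated libraries, and Cx3cr1, Ccr2, Spi1, Trem2 and Timd4 lower ones. C1qa and Csf1r lie nearly level, and Lyz2 lies slightly higher with dabigatran (log2 0.18).

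Among the 5 Fc receptors and their signalling chains, none passed with either drug. Fcgr3, a receptor for the constant part of IgG, had 4.48 and 4.36 log2 CPM with rivaroxaban, 4.34 and 4.51 with dabigatran, and 4.17 and 3.99 in untreated hearts. The 4 treated libraries were above both untreated ones. The log2 difference was 0.34 with each drug (SE 0.10; limma adjusted p = 0.103 with rivaroxaban and 0.118 with dabigatran). Fcgr3 shares 9.58% of its 50-base stretches with Fcgr2b, the inhibitory receptor of the family, which differed by log2 0.18 with rivaroxaban and 0.20 with dabigatran. Trem2, a lipid receptor that signals through TYROBP, had 1.48 and 0.83 log2 CPM with rivaroxaban, 1.61 and 1.64 with dabigatran, and 1.92 and 1.70 in untreated hearts. Its untreated values were above all treated ones, and rivaroxaban replicate 15 was the lowest library. The log2 difference was -0.66 with rivaroxaban (SE 0.22, limma adjusted p = 0.161) and -0.19 with dabigatran (SE 0.22, limma adjusted p = 0.756). Tyrobp, the shared signalling chain, Fcer1g, the signalling chain of Fc receptors, and Fcgr1, the IgG receptor of high affinity, differed from untreated hearts by log2 -0.13 to 0.10 with rivaroxaban and by -0.26 to 0.08 with dabigatran. Of 8 tested partners of TREM2 and TYROBP, such as the kinase Syk, limma called 0 in either comparison.

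The complement C1q genes, which resident macrophages transcribe together from neighbouring loci, were level across the groups. The 3 genes lie side by side on chromosome 4 between 136880129 and 136898803. C1qa had 6.14 and 5.98 log2 CPM with rivaroxaban, 6.09 and 6.08 with dabigatran, and 6.22 and 5.96 in untreated hearts. The log2 differences of the 3 genes from untreated hearts lay between -0.05 and 0.02 with rivaroxaban and between -0.04 and 0.04 with dabigatran. The widest of the 95% intervals, that of C1qc, ran from -0.27 to 0.16 with rivaroxaban and from -0.25 to 0.17 with dabigatran. The lysosomal proteases Lgmn and Ctss, the oxidase subunit Cybb and the glycoprotein gene Gpnmb gave no call either, with log2 differences from -0.08 to 0.27 with rivaroxaban and from -0.06 to 0.12 with dabigatran. Gpnmb had 1.78 and 1.13 log2 CPM with rivaroxaban, 1.18 and 1.10 with dabigatran, and 1.02 and 1.36 in untreated hearts. Rivaroxaban replicate 14 was the high library, and the groups overlapped.

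The 3 genes of monocytes and chemokine sensing had the lowest median difference of any role group, log2 -0.41 with rivaroxaban and -0.61 with dabigatran, and none of them passed. Cx3cr1, the receptor for fractalkine on patrolling monocytes and some macrophages, had 2.97 and 2.41 log2 CPM with rivaroxaban, 2.38 and 3.35 with dabigatran, and 3.71 and 3.48 in untreated hearts. Both untreated values were above the 4 treated ones, and the dabigatran libraries were far apart, with replicate 10 minus replicate 12 at -0.97. The log2 difference was -0.91 with rivaroxaban (SE 0.27, 95% interval -1.50 to -0.32, limma adjusted p = 0.113) and -0.73 with dabigatran (SE 0.27, 95% interval -1.32 to -0.13, limma adjusted p = 0.232). With 1 library left out, the log2 difference of Cx3cr1 lay between -1.19 and -0.63 with rivaroxaban. It lay between -1.21, without dabigatran replicate 12, and -0.24 with dabigatran. Of 15 alternatives, Cx3cr1 passed in 3 with rivaroxaban and in 1 with dabigatran. Ccr2 had 1.28 and 0.88 log2 CPM with rivaroxaban, 0.74 and 1.02 with dabigatran, and 1.57 and 1.41 in untreated hearts. The untreated libraries were again the highest, at log2 differences of -0.41 with rivaroxaban (SE 0.22, limma adjusted p = 0.373) and -0.61 with dabigatran (SE 0.22, limma adjusted p = 0.217). Cd14, the coreceptor for lipopolysaccharide, differed by log2 -0.31 with rivaroxaban (limma adjusted p = 0.242) and by -0.12 with dabigatran (limma adjusted p = 0.709). Of 11 tested genes of Ly6c-high monocytes, limma called 0 in either comparison; Ly6c2 had log2 differences of 0.24 with rivaroxaban and 0.32 with dabigatran, of the sign opposite to Ccr2.

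Summed over the groups of genes, 5 markers were higher in all 4 treated libraries than in both untreated ones (Fcgr3, Fcer1g, Mertk, Ms4a4a and Siglec1) and 5 were lower (Fcgr1, Cx3cr1, Ccr2, Trem2 and Spi1). These are 27.0% of the 37 markers, and 26.4% of all tested genes separated the same libraries. Of all genes, 14.7% were higher and 11.7% were lower in this way. With rivaroxaban, 8 markers were higher and 9 lower than in untreated hearts without overlap (45.9%), where 50.6% of all genes did not overlap (26.1% higher and 24.5% lower). With dabigatran, 8 markers were higher and 6 lower without overlap (37.8%), where 43.6% of all genes did not overlap (22.8% higher and 20.8% lower). The shares of the markers were thus near or below those of all genes.

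The markers of a library tended to be high or low together. In rivaroxaban replicate 14, 35 of the 37 markers were higher than in replicate 15, with a median difference of log2 0.19, where 50.9% of all genes were higher. In dabigatran replicate 10, 9 of the 37 were higher than in replicate 12, with a median of -0.12, where 49.7% of all genes were. Untreated replicate 8 was above replicate 9 for 24 of the 37, with a median of 0.12, where 51.4% of all genes were. These differences within a group were larger than the median difference between any groups, which was at most 0.04. Ms4a4a ran against the rest of the list in the rivaroxaban group: replicate 14 minus replicate 15 was -0.46, the lowest value of the 37 markers.

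**Figure D4:**
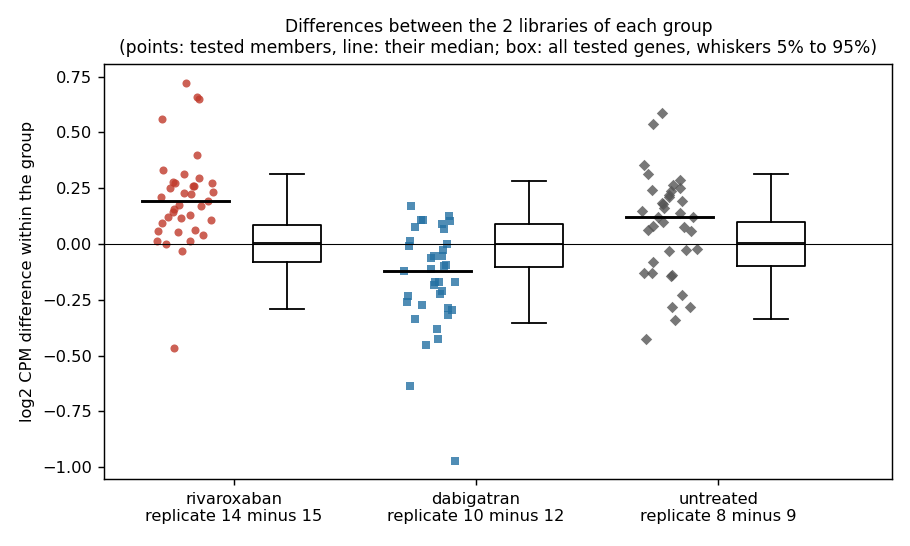
Log2 CPM difference between the 2 libraries of each group (y axis) for the 37 tested markers (points, with a bar at the median) beside all tested genes (box from the lower to the upper quartile, whiskers from 5% to 95%). The markers sit above 0 in the rivaroxaban pair (median 0.19) and below 0 in the dabigatran pair (median -0.12), where the box of all genes is centred on 0.

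The comparison of rivaroxaban with dabigatran asked where the drugs differed, at doses that are not matched. 0 of the 37 markers passed, where 0.077% of all tested genes were called, each of them lower with rivaroxaban. At an unadjusted p under 0.05, limma and limma-voom each gave 1 marker, Cd163, higher with rivaroxaban by log2 0.32 (95% interval 0.06 to 0.59, limma adjusted p = 0.505). In limma, 8.43% of all tested genes had such an unadjusted p. The median log2 difference of the markers was -0.01, against 0.00 for all genes, and 34 of the 37 lay within 0.2 log2 units, where 84.6% of all genes did. Ms4a4a differed by log2 0.07 between the drugs, with a 95% interval from -0.36 to 0.50. Cd163 and Mertk were higher, and Tyrobp, Cd14, Timd4 and Trem2 lower, in both rivaroxaban than in both dabigatran libraries. These are 16.2% of the markers, where 39.7% of all genes did not overlap (19.3% higher and 20.4% lower). The other 2 markers outside 0.2 log2 units were Trem2 at -0.47 (95% interval -0.96 to 0.02) and Gpnmb at 0.31 (95% interval -0.22 to 0.85).

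A wider list held 89 other macrophage genes. 81 of them were listed and 73 tested. With rivaroxaban, 7 of the 73 had an unadjusted p under 0.05 in limma, where 17.2% of all tested genes did. After adjustment limma called 0 of the 73, where 2.46% of all tested genes were called. The rivaroxaban count was 0 with limma-voom and 1 in each of 4 other fits, those with only the 2 groups compared and without rivaroxaban replicate 14, dabigatran replicate 10 or dabigatran replicate 12. With dabigatran 2 of the 73 rose, or 2.74%, where 1.88% of all tested genes were called (1.38% as higher), and 1 rose with limma-voom. The risers were Slc40a1, the iron exporter ferroportin (log2 0.64, SE 0.14, limma adjusted p = 0.0444), and Apoe, an apolipoprotein that macrophages secrete (log2 0.30, SE 0.06, limma adjusted p = 0.0364). Apoe had 8.77 and 8.72 log2 CPM with rivaroxaban, 8.92 and 8.91 with dabigatran, and 8.53 and 8.70 in untreated hearts. Each of the 2 calls was lost without dabigatran replicate 10, dabigatran replicate 12 or untreated replicate 8, that of Slc40a1 also without untreated replicate 9, and that of Apoe also without either rivaroxaban library. Over these omissions the log2 difference lay between 0.58 and 0.71 for Slc40a1 and between 0.21 and 0.38 for Apoe, with limma adjusted p up to 0.159 and 0.173. The median log2 difference of the 73 was 0.03 with rivaroxaban and -0.02 with dabigatran. Csf1, the ligand of the CSF1 receptor, was lower with each drug: it had 6.36 and 6.12 log2 CPM with rivaroxaban, 6.25 and 6.23 with dabigatran, and 7.18 and 6.72 in untreated hearts (log2 -0.71 with each, SE 0.12; limma adjusted p = 0.0149 with rivaroxaban and 0.0183 with dabigatran). The call was lost without untreated replicate 8 for each drug, without rivaroxaban replicate 15 for rivaroxaban and without dabigatran replicate 10 for dabigatran. The log2 differences without 1 library lay between -0.94 and -0.48 for each drug, with limma adjusted p up to 0.167 for rivaroxaban and 0.0803 for dabigatran. Of the 10 tested genes of CSF1 receptor ligands and signalling, Csf1 was the 1 called gene with each drug.

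Markers of other cells that a heart sample can hold were summed in the same way. Mesothelial markers, of the cell layer that covers the heart, summed to 49.2 and 57.6 CPM with rivaroxaban, 62.0 and 64.8 CPM with dabigatran, and 93.1 and 88.0 CPM in untreated hearts. The genes of this list did not all move one way: by limma, 7 of the 8 tested were lower with rivaroxaban and 3 with dabigatran, while Wt1, a transcription factor gene of the epicardium, was higher with each (log2 0.47, adjusted p = 0.0289 with rivaroxaban; log2 0.51, adjusted p = 0.0274 with dabigatran). The mesothelial sum was highest in the untreated libraries, as were Cx3cr1, Ccr2, Spi1 and Trem2. Its part in those values was not tested. Markers of T, NK and B cells summed to 22.6 and 19.9 CPM with rivaroxaban, 16.8 and 23.6 CPM with dabigatran, and 28.1 and 27.8 CPM in untreated hearts, with 16 of 18 listed. None of the 5 tested was called by limma. An unadjusted p under 0.05 was found for 1 with rivaroxaban (17.2% of all tested genes) and 2 with dabigatran (14.7% of all tested genes). This sum was also highest in the untreated libraries, through 1 gene, Ighm, the immunoglobulin heavy chain of B cells (log2 -0.63, limma adjusted p = 0.0586 with rivaroxaban; log2 -0.55, limma adjusted p = 0.106 with dabigatran). Without Ighm the sums overlapped, at 10.0 and 9.38 CPM with rivaroxaban, 6.61 and 9.16 CPM with dabigatran, and 9.82 and 10.4 CPM in untreated hearts. Markers of red cells and platelets, from blood left in the tissue, summed to 12.1 and 13.1 CPM with rivaroxaban, 16.5 and 14.3 CPM with dabigatran, and 11.5 and 5.29 CPM in untreated hearts, with 5 of 10 listed and 4 tested. Slc4a1, the anion exchanger of red cells, was called higher with dabigatran (log2 2.12, limma adjusted p = 0.0487) and not with rivaroxaban (log2 1.67, limma adjusted p = 0.0982). The haemoglobin genes Hba-a1, Hba-a2, Hbb-bs and Hbb-bt were among those not listed, so the blood sum holds no haemoglobin gene. The blood sum was lowest in the untreated libraries, as was Slc40a1. Its part in the values of Slc40a1 and of Cd163, a receptor for haemoglobin, was not tested. Dendritic cell markers summed to 35.9 and 33.2 CPM with rivaroxaban, 35.0 and 33.9 CPM with dabigatran, and 32.5 and 33.2 CPM in untreated hearts, and mast cell markers to 52.9 and 47.4, 48.8 and 48.2, and 39.6 and 47.0 CPM in the same order of groups. Of the 7 tested mast cell markers limma called Gata2, a transcription factor gene that endothelial cells also use, higher with each drug (log2 0.43, adjusted p = 0.0353 with rivaroxaban; log2 0.42, adjusted p = 0.0437 with dabigatran). Without Gata2 the mast cell sums overlapped between the groups and lay between 15.6 and 22.3 CPM over all 6 libraries. Over all 6 libraries, sums of cardiomyocyte markers lay between 85890 and 91320 CPM, lowest in the rivaroxaban libraries (85890 and 87590 CPM). Those of fibroblast markers lay between 3176 and 3454 CPM, highest in the rivaroxaban libraries. Sums of pericyte and smooth muscle markers lay between 1676 and 1724 CPM, lowest in the untreated libraries, and of endothelial markers between 1301 and 1465 CPM. Limma called none of the cardiomyocyte or fibroblast markers. Of the 9 tested pericyte and smooth muscle markers it called Myh11 lower with rivaroxaban. Of the 11 tested endothelial markers it called Emcn lower with rivaroxaban and Flt1 higher with dabigatran.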

How the data were processed

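Per the labels' protocols, poly-A RNA of heart tissue was made into directional libraries. Tools in the submitters' processing notes are STAR, edgeR, bcl2fastq, FastQC and Trim Galore, with build mm10; the sources used here give no versions, annotation or read counter. Per the file name, the authors deposited TMM-scaled log2 CPM, with a small count added before the log2, since each library has the lowest value -4.04; differences of low genes are therefore understated. Values below 200 steps of 1 read were whole reads in 100% of cases (tolerance 0.02 reads), which gave the depths.

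Genes averaging 0 log2 CPM or more were tested with limma 3.58.1 in R 4.3.3: 3 group means over 6 libraries, a mean-variance trend, 3 residual and 7.75 prior degrees of freedom, two-sided, Benjamini-Hochberg over 12981 genes, threshold 0.05. The test was checked on simulated data. Errors are the fit's SE and 95% intervals. Genes described with all values are those called and a fixed set of identity and subset markers. Markers whose untreated libraries lay outside the range of all treated ones, past a set size of difference, were added. For Fcgr3 and Mertk that separation was thus the rule of choice. F13a1, Ms4a7 and Ms4a6d were given in addition. The members and all lists were chosen with earlier results of these data known. Coordinates, exon lengths and shared 50-base stretches come from GENCODE M21 on GRCm38. Reads carry no molecular identifiers, so they are not independent molecules. The counts planned for edgeR and DESeq2 could not be taken from a log2 table, so limma-voom on recovered reads was added after the data were seen.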

Additional observations from a re-analysis of the deposited data

How the results depend on the processing

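Each result was recomputed under up to 15 alternatives, of which limma-voom on recovered reads was chosen after seeing the data; the planned edgeR and DESeq2 fits were not run. Of 1644 values of single markers, 1630 stayed on the same side of the threshold, 10 lost a call and 4 gained one. No called value changed sign. Among the 1630, 116 values of markers called in neither fit changed direction. Without the mean-variance trend, limma called 0 markers and 0 genes in all 3 comparisons (at unadjusted p under 0.05, 9 markers and 1938 genes with rivaroxaban, 5 markers and 1728 genes with dabigatran; limma-voom called 2 and 1 markers). Among genes of mean log2 CPM at least 2, a filter that Ms4a4a does not pass, 1 marker was called with rivaroxaban, 0 with dabigatran, and 1 gene between the drugs. Genes called between the drugs were 6 with only those groups in the fit and 1 with limma-voom; the cause was not tested. Leaving out 1 library at a time gave 0 to 3 called markers and 61 to 410 called genes for rivaroxaban against untreated, 0 to 2 markers and 73 to 270 genes for dabigatran against untreated, and 0 markers and 0 to 20 genes between the drugs; a lone library of a group was assumed to vary like the others. The median log2 difference of the markers ran from -0.08 to 0.15, from -0.03 to 0.10 and from -0.10 to 0.09 in the same order of comparisons, so its sign turned with the library left out. With each library centred on its median, 177 higher and 149 lower genes were called for rivaroxaban against untreated, in place of 191 and 128. No paired analysis was possible because the groups share no replicate numbers. Ms4a4a, Ccr2, Trem2 and Gpnmb had the lowest mean log2 CPM among the tested markers, which limits their precision.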
